A study of Mus musculus with 3 samples.

Results

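The retinoic acid genes described here are the 9 genes Aldh1a2, Aldh1a3, Crabp1, Crabp2, Rara, Rarb, Rarg, Cyp26a1 and Cyp26b1. They were taken by name, as every probe set annotated to exactly 1 of these symbols, which gave 12 probe sets out of 45037 and 9 of 18193 genes measured. Retinoic acid is made from vitamin A (retinol) inside cells. Retinol is oxidised to retinaldehyde, and the retinaldehyde dehydrogenases of the Aldh1a family turn that into retinoic acid. Crabp proteins carry retinoic acid in the cytoplasm, and the receptors Rara, Rarb and Rarg, each bound to a partner of the Rxr family, bind response elements in the DNA of target genes and activate them when the ligand is present. Cyp26 enzymes oxidise retinoic acid and so end the signal, and mouse embryos without Cyp26a1 have malformations of the caudal trunk and its organs. Rarb and Cyp26a1 are themselves well known targets of the pathway.

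The study measured RNA of the genital tubercle, the bud from which penis or clitoris develops, in 3 mouse embryos, on 1 array per embryo. All 3 are labelled male, strain FVB/N, embryonic day 14 and Theiler stage 22. All carry the label of the SMAA/EYFP transgene, a yellow fluorescent reporter named for smooth muscle actin (Acta2), with FVB/N mothers mated to transgenic males. The tubercle was dissected by that fluorescence, no sample was pooled, and there was neither a treatment nor a control group. The labels differ in 1 point, the developmental landmark: in replicate 3 individual fingers are visible, whereas in replicates 1 and 2 the footplates have indented borders. Because each sample is whole tissue, fewer cells of a type and less RNA per cell cannot be told apart in any value below. Whether the embryos came from separate litters is not stated, and differences between samples mix animal, dissection, amplification and hybridisation.

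The labels were checked against marker genes before the retinoic acid genes were examined. Background was passed in 3 of 3 samples by 8 of 9 genital tubercle genes, such as Hoxd13 (40748 ± 2303) and Isl1 (48464 ± 4187, deposited signal, SD, n = 3), and the probe set of Hoxa13 was above it in replicate 1 alone. Replicate 3 went against its sex label. Xist, the RNA of the inactive X chromosome, read 61883 in replicate 3, against 8.05 and 118 in replicates 1 and 2, and the Y-linked Eif2s3y read 37.9, below background, against 4384 and 3738. Replicate 3 is also the only sample with visible fingers, so landmark, sex and any other feature of that embryo cannot be told apart. Samples also differed in markers of other tissues, with replicate 1 highest and replicate 3 lowest in liver genes, whose summed signal over 7 genes was 8919 in replicate 3, 103849 in replicate 1 and 50606 in replicate 2. In skeletal muscle genes the sum over 8 genes was 2729 in replicate 3, 23710.2 in replicate 1 and 6674 in replicate 2. Among genes above background in 3 of 3 samples, the median log2 difference of replicate 3 from replicates 1 and 2 was -2.97 and -2.37 for 3 liver genes, -2.73 and -1.06 for 4 skeletal muscle genes and -1.71 and -1.39 for 5 erythroid genes. Of 6 erythroid genes measured, 5 were above background in each sample. The sum over the 6 was 81018 in replicate 3, 84833 in replicate 1 and 98100.4 in replicate 2. Most of each sum was Hbb-y (77722, 59853 and 86889 in that order), so the sums say little about the other erythroid genes. Of 8 gonad genes only Star was above background in 3 of 3 samples, and the germ cell genes Ddx4 and Dazl and the Sertoli cell gene Amh were above it in no sample.

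The response element itself is shown first. The 2 members found to carry it at the promoter were also those whose values in replicate 3 lay furthest from both other samples on either side. This order of presentation was chosen with the values known, and a link between element and values was not tested. In the RefSeq promoter windows of build GRCm38.p6, which run from 250 bases before to 50 bases after a gene's start, 11 windows matched 7 of the 9 members. Each was searched on both strands for DR5, DR2 and DR1, the direct repeats of the retinoic acid receptor hexamer with 5, 2 or 1 bases between the repeats. DR5 was found in the windows of Rarb and Cyp26a1 and in no other member's window, against 32 of 32851 windows of all genes (0.0974%). Aldh1a3 and Crabp2 had no window and were not searched. Read on the strand on which the repeat runs forward, with both hexamers in capitals along with the spacer, the elements are:
Rarb DR5: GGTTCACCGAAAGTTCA
Cyp26a1 DR5: AGTTCACCCAAAGTTCA
They were identical at 15 of 17 bases. The Rarb element lay at -53 to -37 from the start of the gene, on the gene's own strand. The Cyp26a1 element lay at -32 to -16, on the opposite strand, so that the window below shows its reverse complement.

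The whole windows follow, 5′ to 3′ on the strand of the gene and with the DR5 match in capitals, so that its place next to the start can be seen. The Rarb window is chr14:16575427-16575726 (minus strand) and the Cyp26a1 window is chr19:37697558-37697857 (plus strand).
Rarb promoter window: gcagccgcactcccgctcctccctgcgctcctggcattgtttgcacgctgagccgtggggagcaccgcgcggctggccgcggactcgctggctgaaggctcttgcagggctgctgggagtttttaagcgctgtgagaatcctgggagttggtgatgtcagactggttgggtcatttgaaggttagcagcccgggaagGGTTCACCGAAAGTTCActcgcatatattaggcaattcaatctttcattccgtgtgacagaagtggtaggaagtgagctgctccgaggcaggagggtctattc
Cyp26a1 promoter window: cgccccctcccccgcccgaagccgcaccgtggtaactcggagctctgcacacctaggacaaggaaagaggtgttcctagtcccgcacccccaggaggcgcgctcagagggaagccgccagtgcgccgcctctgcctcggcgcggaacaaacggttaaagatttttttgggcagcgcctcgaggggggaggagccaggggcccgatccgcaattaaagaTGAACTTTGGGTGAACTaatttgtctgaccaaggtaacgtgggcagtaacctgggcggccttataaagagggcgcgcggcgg
DR2 (0.268% of all windows) and DR1 (0.222%) were in none of the members' windows. The TATA box letters TATAAA were present in the windows of Cyp26a1, at 30 to 35 bases after the start, and Cyp26b1, at -139 to -134, against 13.6% of all windows. The GC box letters GGGCGG were in 7 of the 11 windows, those of 5 members, against 35.7% of all windows. A match describes letters in a window and is not a measured binding site, and the array carries no measurement of binding.

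All 9 genes were above background in 3 of 3 samples on their main probe set, the one with the highest mean signal, where 60.5% of all 18193 genes were. Genes of smell, pheromone and taste receptors set the background: the 95th percentile of their 81 probe sets lay at 197 signal units in replicate 3, 135.8 in replicate 1 and 253.1 in replicate 2. Leaving out a sample could not lower this count, because all 9 genes passed in each sample. With the stricter 99th percentile it was 8, because Cyp26a1 then lay below background in replicate 3. Probe sets beyond the main one existed for Aldh1a3 and Rarg, and none of these 3 was above background in any sample, with signals between 12.6 and 128. Levels of different probe sets are not compared here, since each probe set has its own response.

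**Figure D1:**
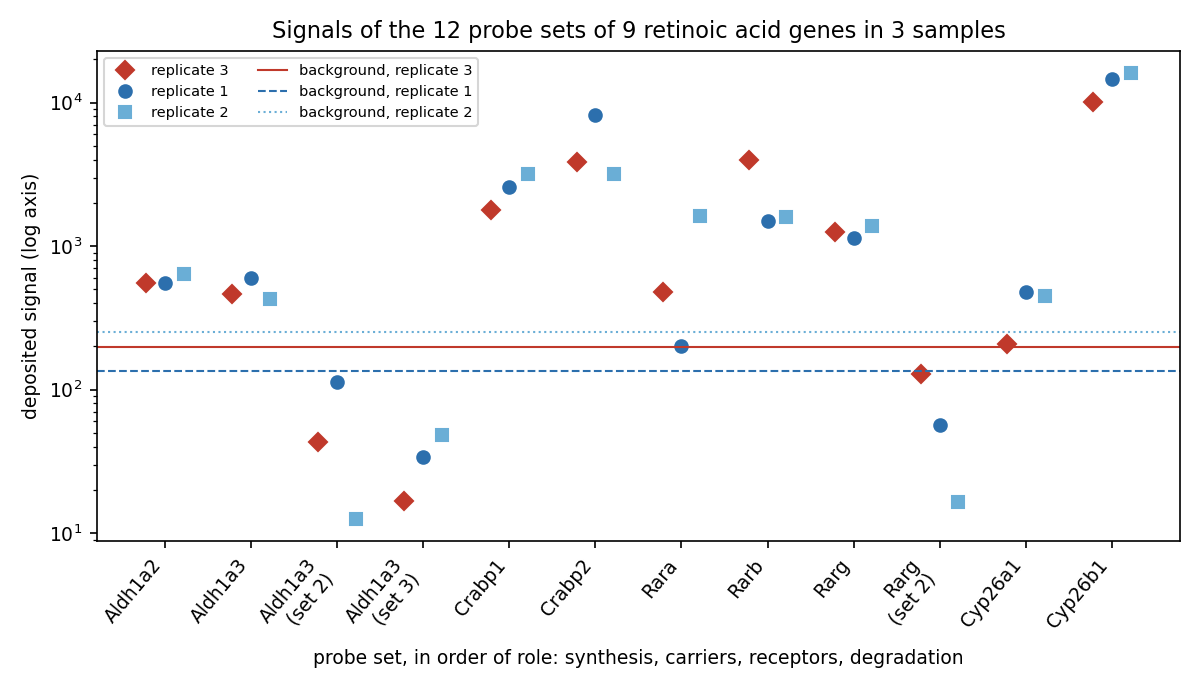
Deposited signals (log axis) of the 12 probe sets of the 9 genes, ordered by role, with 1 marker per sample and horizontal lines at each sample's background. All 9 main probe sets lie above the line of their own sample, Cyp26a1 only just so in replicate 3 (207 against a background of 197), and the 3 further probe sets of Aldh1a3 and Rarg lie below.

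Among the enzymes of synthesis, Aldh1a2, the main retinaldehyde dehydrogenase of the early embryo, had signals of 557 in replicate 3, 549 in replicate 1 and 638 in replicate 2. These were close together, and after the samples were aligned on their medians its SD over the 3 samples was 0.04 on the log2 scale. Aldh1a3, another retinaldehyde dehydrogenase, known from eye and nasal tissue, read 465 in replicate 3, 601 in replicate 1 and 429 in replicate 2, with an SD of 0.36. Its highest value was in replicate 1, which was 1.64-fold above replicate 2 after alignment. Its 2 further probe sets stayed below background in each sample and give no further reading.

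Of the binding proteins, Crabp1, a cytoplasmic carrier thought to pass retinoic acid to degradation, read 1795 in replicate 3, 2578 in replicate 1 and 3165 in replicate 2. It was lowest in replicate 3, by 1.53-fold against replicate 1 and 1.60-fold against replicate 2 after alignment. Crabp2, which hands retinoic acid to the receptors in the nucleus, read 3837 in replicate 3, 8213 in replicate 1 and 3199.85 in replicate 2. Here replicate 1 stood alone, 2.27-fold above replicate 3 and 3.0-fold above replicate 2. Of the 11006 genes above background in 3 of 3 samples, called all genes in the counts that follow, 1.56% were over 2-fold higher in replicate 1 than in each other sample. Liver and skeletal muscle sums were highest in that same sample, as given above, and so was the sum of 8 epithelial genes, at 91884 in replicate 3, 122552 in replicate 1 and 105801 in replicate 2. Smooth muscle, nerve and glia, and gonad sums were highest in replicate 1 too, whereas those of genital tubercle, mesenchyme, erythroid and endothelial genes were not. Most of the nerve and glia sum was Erbb3, highest in replicate 1 like Stmn2, while Sox10, Elavl3, Elavl4 and Nefl were lowest there. Star, the only gonad gene above background in 3 of 3 samples, was highest in replicate 2. Of erythroid genes, Slc4a1, Klf1 and Alas2 were highest in replicate 1, and Hbb-y and Hbb-bh1 in replicate 2. Of endothelial genes, Cdh5 was highest in replicate 1 and Kdr lowest there. The part of any of these tissues in the Crabp2 value was not tested.

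The receptors differed in their spread between samples. Rarg, the receptor known from skin and cartilage, read 1248 in replicate 3, 1138 in replicate 1 and 1379 in replicate 2, and had the smallest spread of the 9 genes (SD 0.03 on the aligned log2 scale). Rarb, the receptor gene with the DR5 element printed above, read 3948 in replicate 3, against 1496 and 1591 in replicates 1 and 2. Replicate 3 was 2.48-fold above replicate 1 and 2.73-fold above replicate 2, while replicates 1 and 2 lay within 1.10-fold of each other. Of all genes 66 of 11006, or 0.6%, were over 2-fold higher in replicate 3 than in each other sample. Rara, the broadly expressed receptor, read 477 in replicate 3, 199.7 in replicate 1 and 1618 in replicate 2. All 3 samples differed there, and replicate 1 was 6.92-fold below replicate 2. The value in replicate 1 was only 1.47 times that sample's background. Of all genes 1.42% were over 2-fold lower in replicate 1 than in each other sample, and 0.909% were over 2-fold higher in replicate 2 than in each other sample, as Rara was in both respects.

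Rara had the largest spread of the 9 genes (SD 1.40 on the aligned log2 scale), and 99.5% of all genes above background in 3 of 3 samples had a smaller one. Some of the control probe sets that report RNA quality moved with it, and others did not. At the 5′ end of β-actin the signals were 9118 in replicate 3, 3262 in replicate 1 and 28990.3 in replicate 2. The log2 difference of replicate 1 from replicate 2 was -2.79 for Rara, -2.92 for the 5′ β-actin control and -1.19 for the 3′ one. For replicate 3 against replicate 1 it was 1.17 for Rara, 1.40 for the 5′ control and 0.66 for the 3′ control. The ratio of 3′ to 5′ β-actin signal, which is larger where RNA is shorter or amplification stops earlier, was 4.42 in replicate 3, 7.38 in replicate 1 and 2.21 in replicate 2. The 18S control gave -2.43 between replicates 1 and 2 at its 5′ end and -2.31 at its 3′ end. All 3 Gapdh controls ran the other way, at 0.62 for the 5′ end. For 18S the 3′ to 5′ ratio was 1.44 in replicate 3, 1.22 in replicate 1 and 1.12 in replicate 2, so highest in replicate 3. The 3′ to 5′ ratio of Gapdh was 14.1 in replicate 3, 21.5 in replicate 1 and 14.9 in replicate 2, highest in replicate 1 as for β-actin but close between replicates 3 and 2. The part of RNA quality in the Rara values was not tested. The genes with the pattern most like that of Rara over the 3 samples, by Euclidean distance between deviations of aligned log2 signal from the gene's own mean, were Zfp612 (distance 0.08), Stat5b (0.16), Tbx5 (0.20), Ammecr1 (0.20) and Robo2 (0.24).

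**Figure D2:**
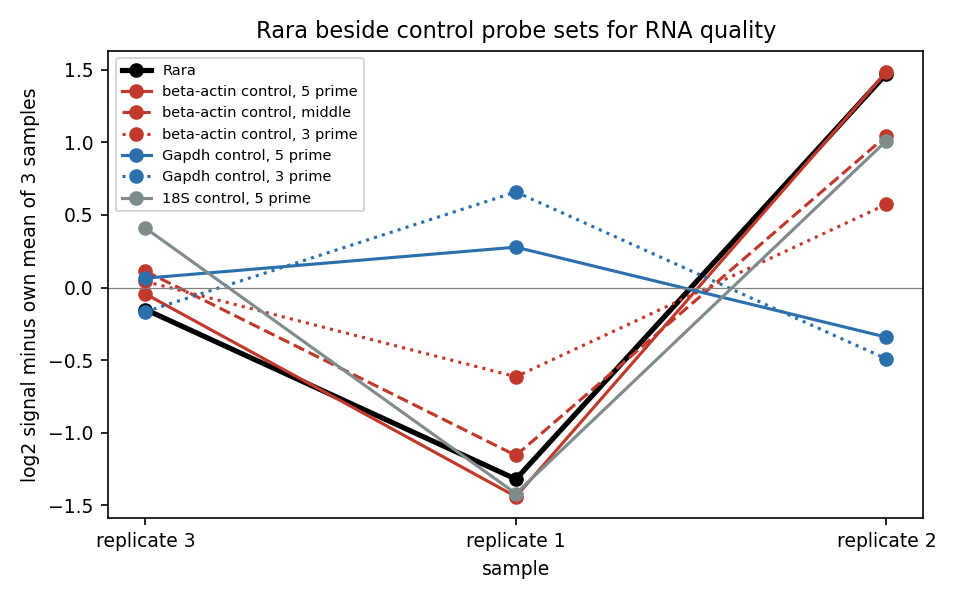
Aligned log2 signal minus its own mean over the 3 samples, for Rara (black) and for control probe sets of β-actin, Gapdh and 18S RNA. Rara and the 5′ β-actin control are both lowest in replicate 1 and highest in replicate 2 (differences of -2.79 and -2.92), and the Gapdh controls run the other way.

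Both degrading enzymes were lowest in replicate 3. Of all genes, 34.8% were higher in replicate 3 than in replicate 1 and 60.1% higher than in replicate 2. The share lowest in replicate 3 at any size was not counted. Cyp26a1, whose promoter window holds the other DR5 element, read 207 in replicate 3, against 477 and 445 in replicates 1 and 2. Replicate 3 was 2.45-fold below replicate 1 and 1.95-fold below replicate 2, and the value there was only 1.05 times that sample's background. Of all genes 1.43% were lower in replicate 3 than in each other sample by more than 0.9 on the log2 scale, a limit set after the values were seen. Cyp26b1, which clears retinoic acid from limb buds and from the fetal testis, read 10041 in replicate 3, against 14658 and 16060.2 in replicates 1 and 2. It was 1.55-fold lower in replicate 3 than in replicate 1 and 1.45-fold lower than in replicate 2, and replicates 1 and 2 lay within 1.07-fold. The medians of liver, skeletal muscle and erythroid genes were also lower in replicate 3 than in both other samples, as given above, and their part in the values of both enzymes was not tested. Rarb and Cyp26a1, the members with the DR5 element at the start, thus lay on opposite sides in replicate 3, though neither passed the test given next.

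The landmark contrast set replicate 3, with fingers visible, against the mean of replicates 1 and 2 in limma over 29065 probe sets. No probe set was called at an adjusted p under 0.05, which is 0% of those fitted and 0 of the 9 members, and 604 (2.08%) had an unadjusted p under 0.05, again with 0 of the 9 members. The largest differences among the 9 were 1.38 ± 0.60 for Rarb (log2 difference ± SE, adjusted p = 1.00 and unadjusted p = 0.0835 by limma) and -1.13 ± 0.62 for Cyp26a1 (adjusted p = 1.00, unadjusted p = 0.141 by limma). Crabp1 (-0.64 ± 0.60) and Cyp26b1 (-0.59 ± 0.60) followed. The contrast leaves 1 residual degree of freedom, from replicates 1 and 2, and takes the lone sample to vary like the others. The SEs also draw on a variance shared by all probe sets fitted, so they are not each gene's own spread over 3 samples. Leaving out 1 sample turned the sign for 3 members with unlike values in replicates 1 and 2, namely Crabp2 (-0.39, and 0.40 without replicate 1), Aldh1a3 (-0.10, and 0.26 without replicate 1) and Rara (-0.23, and 1.17 without replicate 2). It also did so for Rarg, whose difference was 0.02. For Rarb the values without replicate 1 or 2 were 1.45 and 1.31, for Cyp26a1 -0.97 and -1.29, for Crabp1 -0.68 and -0.61 and for Cyp26b1 -0.54 and -0.63.

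**Figure D3:**
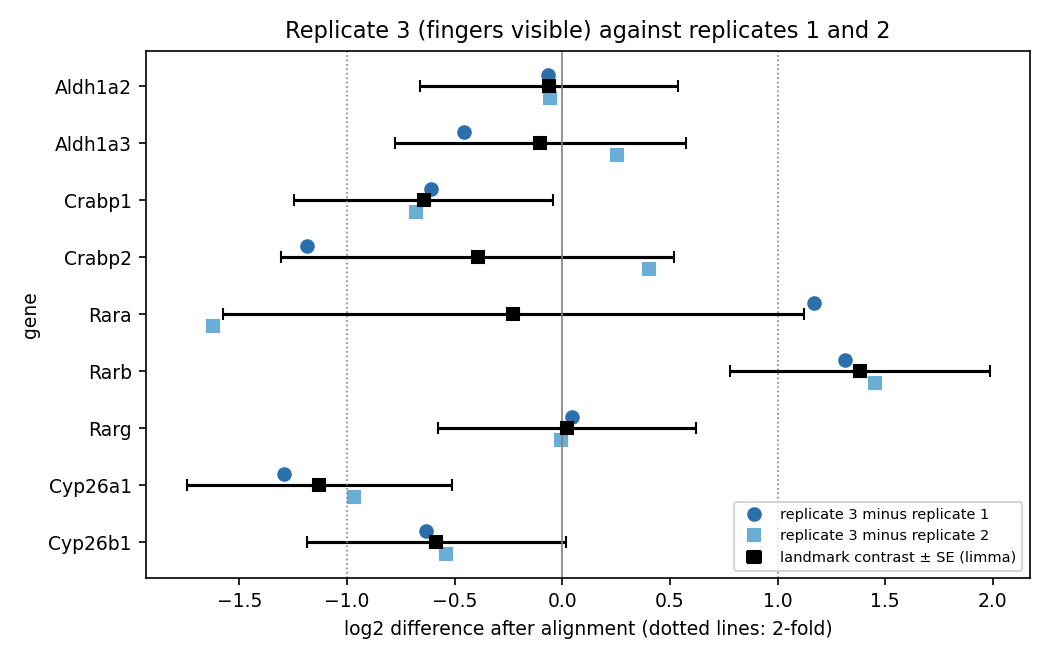
Log2 differences of replicate 3 from replicate 1 (circles) and from replicate 2 (light squares) after alignment, with the limma landmark contrast ± SE (black squares). Rarb lies beyond the 2-fold line on the positive side against both samples (1.31 and 1.45), Cyp26a1 is negative against both but beyond that line against replicate 1 only (-1.29 and -0.97), and Rara and Crabp2 have opposite signs against the other samples.

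Counted by pairs, 4 of the 9 genes differed by over 2-fold between replicates 3 and 1 (Rarb and Rara higher, Crabp2 and Cyp26a1 lower in replicate 3), where 7.62% of all genes did (2.98% higher and 4.64% lower). Between replicates 3 and 2 it was 2 of 9 (Rarb higher, Rara lower), against 7.24% of all genes (4.61% higher and 2.63% lower). Between replicates 1 and 2 it was 2 of 9 (Crabp2 higher, Rara lower in replicate 1), against 12.3% of all genes (8.66% higher and 3.63% lower). The median log2 difference of the 9 members was -0.46, -0.06 and 0.10 in these pairs, and that of all genes was -0.18, 0.13 and 0.32. The 9 genes had a median SD of 0.373, beside 0.330 over all 11006 genes above background in 3 of 3 samples. Their range was wide, with Aldh1a2 and Rarg below 0.05 and Crabp2, Rarb and Rara at 0.80 or more. Cyp26b1 (0.34), Aldh1a3 (0.36), Crabp1 (0.37) and Cyp26a1 (0.67) lay between them. The low SDs varied with the alignment: Rarg had 0.14 and Aldh1a2 0.12 without it, 0.22 and 0.26 with alignment on all probe sets, and 0.02 and 0.16 with quantile normalization.

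**Figure D4:**
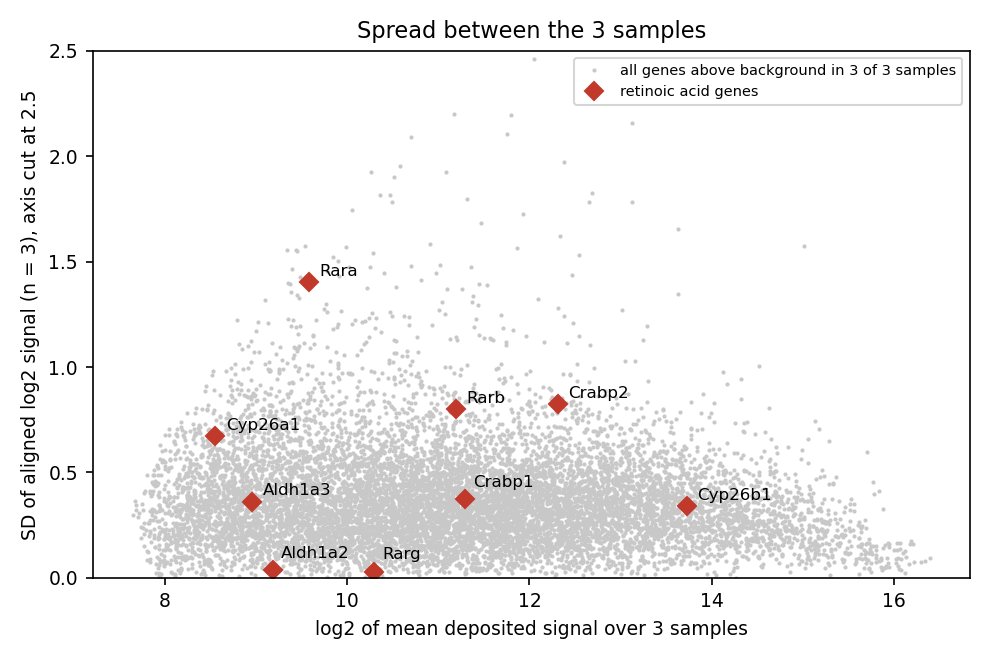
SD of aligned log2 signal over the 3 samples (n = 3) against the log2 of mean deposited signal, for the 9 retinoic acid genes (red) and all 11006 genes above background in 3 of 3 samples (grey, with 2 genes above the axis limit). Aldh1a2 and Rarg sit at the lower edge (0.04 and 0.03) and Rara near the upper edge (1.40).

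Beyond the 9, 65 genes of the wider pathway were measured, in lists of retinol handling, dehydrogenases, receptor partners, coregulators and responsive genes. Of these, 45 were above background in 3 of 3 samples and 0 were called by limma in the landmark contrast. Nr2f1, an orphan nuclear receptor, was the single one with an unadjusted p under 0.05 there. It read 246 in replicate 3, above background, against 46.2 and 89.3 in replicates 1 and 2, below it (adjusted p = 1.00 by limma). It entered the fit through replicate 3 alone, so its p and the size of its difference rest on values below background and are not read further. Over 2-fold differences were found in 7 of the 45 (15.6%) between replicates 3 and 1, in 5 (11.1%) between replicates 3 and 2 and in 11 (24.4%) between replicates 1 and 2, beside 7.62%, 7.24% and 12.3% of all genes.

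Retinol uptake, transport and storage was the list of these 5 with the fewest genes above background, 5 of 12 in 3 of 3 samples. The serum carrier Rbp4, which the liver secretes, read 367 in replicate 3, 4924 in replicate 1 and 1207 in replicate 2, and its plasma partner Ttr read 369 in replicate 3, 10438 in replicate 1 and 1896 in replicate 2. Both followed the order of the liver genes, of which 3 of 7 were above background in replicate 3, 7 of 7 in replicate 1 and 4 of 7 in replicate 2. Albumin (Alb) read 1400 in replicate 3, 42766 in replicate 1 and 9061 in replicate 2. The part of liver RNA in Rbp4 and Ttr was not tested. The lipase gene Lpl read 2912 in replicate 3, 6507 in replicate 1 and 2831 in replicate 2. Stra6, the membrane receptor for Rbp4, was above background in replicates 3 and 1 (214 and 145) and not in replicate 2 (217, under the higher background there), and Lrat, which stores retinol as esters, was above it in no sample.

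Of the dehydrogenases and reductases, 11 of 15 were above background in 3 of 3 samples. Rdh10, which makes the retinaldehyde that Aldh1a2 uses, read 4798 in replicate 3, 4028 in replicate 1 and 2755 in replicate 2. Dhrs3, which turns retinaldehyde back to retinol and is induced by retinoic acid, read 910.1 in replicate 3, 1160 in replicate 1 and 1180.4 in replicate 2. Aldh1a1, a further retinaldehyde dehydrogenase, read 283 in replicate 3, 485 in replicate 1 and 588 in replicate 2. None of these 3 passed 2-fold in any pair. The alcohol dehydrogenase Adh1, which can oxidise retinol, did so in 2 pairs, at 1829 in replicate 3, 3448 in replicate 1 and 1144 in replicate 2, and was highest in replicate 1. Dhrs4, which can reduce retinaldehyde, read 1840.2 in replicate 3, 3039 in replicate 1 and 1414 in replicate 2, over 2-fold apart between replicates 1 and 2 only.

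Of receptor partners and carriers, 8 of 10 were above background in 3 of 3 samples. Rxra read 3163 in replicate 3, 3790.02 in replicate 1 and 2889 in replicate 2, and Rxrb 3713 in replicate 3, 5253 in replicate 1 and 4213 in replicate 2. Rxrg was above background in replicate 3 alone (212, against 87.0 and 200.2 in replicates 1 and 2). Fabp5, which carries retinoic acid to another receptor, Ppard, read 64619 in replicate 3, 71354 in replicate 1 and 74322 in replicate 2. The orphan receptor Nr2f2 read 2024 in replicate 3, against 963 and 1369 in replicates 1 and 2, and Nr2f6 596 and 630.4 in replicates 3 and 1 against 1644 in replicate 2. Coactivators and corepressors were above background in 14 of 14 measured, with Nrip1, a ligand-dependent corepressor, at 6237 in replicate 3, 6512 in replicate 1 and 3661 in replicate 2. Zfp423, a cofactor of the receptors, read 1066 in replicate 3, 452 in replicate 1 and 1216 in replicate 2.

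Of 16 genes known to respond to retinoic acid, 9 were above background in 3 of 3 samples, where 60.5% of all genes measured were. Against replicate 1, replicate 3 was over 2-fold higher in none of these 9 and lower in 2 (Tgm2 and Zfp703). The shares of all genes in that pair were 2.98% higher and 4.64% lower. Against replicate 2, replicate 3 was over 2-fold higher in 1 (Meis1) and lower in none, beside 4.61% and 2.63% of all genes. Meis1, a homeobox gene induced in limb by retinoic acid, read 6548 in replicate 3, against 3720.4 and 3252 in replicates 1 and 2, and Meis2 read 12656 in replicate 3, 14106 in replicate 1 and 11685 in replicate 2. Zfp703 was lowest in replicate 3, at 896, against 2379 and 1956 in replicates 1 and 2. The transglutaminase Tgm2 read 1424 in replicate 3, 6238 in replicate 1 and 1235 in replicate 2, and so was high in replicate 1 alone, like Crabp2. The targets Hoxb1, Cdx1 and Stra8, a gene of germ cells entering meiosis, were above background in no sample.

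**Figure D5:**
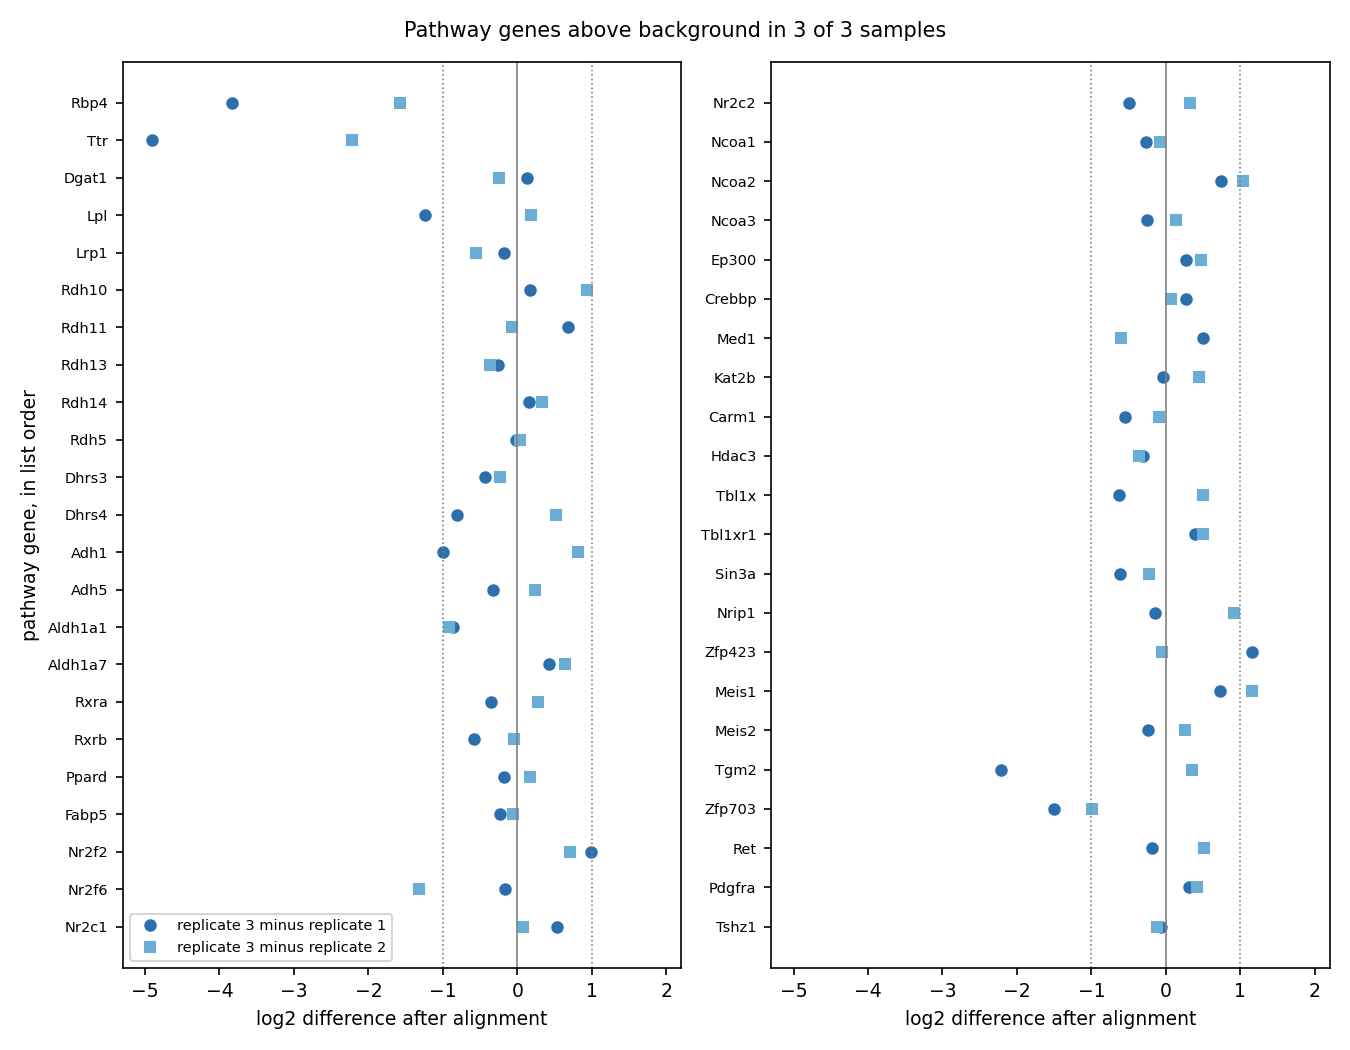
Log2 differences of replicate 3 from replicate 1 (circles) and replicate 2 (squares) after alignment for the pathway genes above background in 3 of 3 samples, in list order. Rbp4 and Ttr lie furthest to the negative side, Zfp703 is low against both samples, and most other genes lie within the dotted 2-fold lines.

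The DR5 element was also read against the array beyond the members. Of 31 genes with DR5 in a promoter window, 11 were measured and 6 were above background in 3 of 3 samples, namely Rarb, Cyp26a1, Prokr2, Blvrb, Ppbp and Hbb-y. Prokr2, a receptor for prokineticin, read 411 in replicate 3, against 719 and 683 in replicates 1 and 2. Blvrb, a biliverdin reductase, read 439 in replicate 3, against 1197 and 658 in replicates 1 and 2. The log2 differences of replicate 3 from replicates 1 and 2 were 1.31 and 1.45 for Rarb and -1.29 and -0.97 for Cyp26a1. They were -0.89 and -0.59 for Prokr2 and -1.54 and -0.45 for Blvrb. For Ppbp they were -2.62 and 0.82, and for Hbb-y 0.29 and -0.02. Of all genes, 34.8% were higher in replicate 3 than in replicate 1 and 60.1% higher than in replicate 2. The share lower than in both was not counted, so no trait of DR5 genes is read from these values. Ppbp (1035 in replicate 3, 5982 in replicate 1 and 646 in replicate 2) and Hbb-y (77722, 59853 and 86889) are genes of platelets and of primitive red cells.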

How the data were processed

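Per the labels' protocols, total RNA was purified with a Qiagen kit, amplified in 2 rounds and coupled to biotin. The deposited table holds linear intensity values, 1 per probe set and sample, made by the authors with GCOS per the submitters' processing notes, with no version or setting given in the sources used here. Each sample had a mean of 1500.0 after trimming 2% of values at each end, so values had been scaled before deposit, and 0 columns were left unmatched. Of 45101 probe sets, 64 controls were set aside. Of the rest, 34945 carried 1 gene symbol in a platform annotation, 932 carried several and 9160 had none, and no symbol changed when checked through Entrez identifiers in RefSeq GRCm38.p6.

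Signals below 1 were set to 1, log2 transformed and aligned on the median of probe sets above background in 3 of 3 samples, which differed by 0.23 between samples. Signals are printed as deposited, and log2 differences and folds after alignment. The landmark contrast was fitted with lmFit and eBayes in limma 3.58.1 (R 4.3.3), on probe sets that passed background in 1 sample or more, two-sided and adjusted by Benjamini-Hochberg, after a test on simulated data. P-values cover no spread beyond these samples. Each gene's own variance in the fit came from replicates 1 and 2 alone, and eBayes drew it towards a variance shared by all probe sets fitted. The SE was thus 0.60 for Aldh1a2 and Rarg, whose replicate 1 minus replicate 2 differences were 0.01 and -0.05. Sequences are RefSeq's. Protein sequences were not used here, so the planned identity comparison was not run. Other settings tried were alignment, floor, filter, variance trend, background percentile, probe set choice and leaving out samples.

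The genes named were the 9 members, a set of pathway genes named whatever their values, and the 5 genes most like the member of largest spread. Further pathway genes were named if above background in 3 of 3 samples and over 2-fold apart in 2 of 3 pairs. Outside these rules, Dhrs4 (over 2-fold apart in 1 pair), the DR5 genes above background in 3 of 3 samples and some marker genes were named. The 2-fold criterion was applied to pathway genes, and marker genes of other tissues are given mainly as list sums and medians. Members and lists were chosen with earlier results of these data known. Listed genes without a symbol of their own in the annotation were not analysed here. The arrays' small number limits the precision of every value.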

Additional observations from a re-analysis of the deposited data

How the results depend on the processing

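No paired analysis was possible because the samples form 1 group. The landmark contrast called 0 probe sets, and also 0 without alignment, with quantile normalization, with a floor of 32, without a filter and with a variance trend. It called 86 with alignment on the overall median of probe sets and 1 among probe sets above background in all 3 samples. None of the 9 members was called under any of these settings. Of 83 alternative values of the members' landmark differences, 6 had the opposite sign. Rarg (0.021) became -0.0057 without alignment and -0.065 with alignment on all probe sets, and the others were values without 1 sample. Without replicate 1 or 2 these were -0.0045 and 0.046 for Rarg, 0.40 and -1.19 for Crabp2, 0.26 and -0.46 for Aldh1a3, and -1.62 and 1.17 for Rara. With the mean of each gene's probe sets, including those below background, the difference was 1.06 for Rarg and -0.37 for Aldh1a3. Rarb stayed between 1.30 and 1.45 and Cyp26a1 between -1.29 and -0.97. Members over 2-fold apart between replicates 3 and 1 numbered 4, and 2 with alignment on all probe sets, where the Rarb difference was 0.99 and that of Rara 0.84 and the median of all genes moved to -0.50. Under that alignment the share of all genes over 2-fold apart was 14.8% in this pair in place of 7.62%, and 36.0% between replicates 1 and 2 in place of 12.3%. The members' median SD was 0.605 under it in place of 0.373, and that of all genes 0.487 in place of 0.330. The other pair counts and the count above background stayed within 1.5 times of their values. With arrays, signal over background limits Cyp26a1 in replicate 3 and Rara in replicate 1, at 1.05 and 1.47 times background.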
